A study of Mus musculus with 2 samples.

Results

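Efferocytosis is the uptake of dying cells by phagocytes, and 8 of its genes are described here in cells of the infarcted mouse heart. The genes were chosen by name and role from the 32287 features of the count tables: 5 receptors (Axl, Mertk, Timd4, Stab1 and Cd36) and 3 secreted bridging molecules (Gas6, Pros1 and Mfge8). A dying cell exposes phosphatidylserine on its outer membrane, which phagocytes bind either directly, through receptors such as Timd4 and Stab1, or through a bridging molecule that holds both partners. Gas6 bridges to the receptor tyrosine kinases Mertk and Axl, Pros1 to Mertk but not to Axl, and Mfge8 bridges to integrins. In the heart after an infarct, macrophages clear dead cardiomyocytes and neutrophils, and Mertk is known for its part in that clearance.

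The cells came from p16-2A-CreER;R26-mTmG mice, in which the promoter of p16, a gene linked to cellular senescence, drives a tamoxifen-dependent Cre, and recombined cells switch to a membrane GFP. Both sorted fractions carried both alleles, had myocardial infarction (MI) and were given tamoxifen on day 5 after it, and non-cardiomyocytes were taken from the infarct zone on day 7. GFPhi cells, labelled GFP positive, and GFPlo cells, labelled GFP negative, gave 1 single-cell RNA-seq library each. How many mice were pooled for a library is not stated in the labels.

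With 1 library per fraction there is no replicate check and no test of the fractions. Levels are given as CPM: the unique molecular identifiers (UMIs) of a gene, summed over a group of cells, per 1000000 UMIs of those cells. A range in parentheses after a level, a share or a ratio is its exact 95% interval, which reflects the error of counting UMIs or cells and nothing else, as does the limit that a count of 0 allows. A gene counts as measured in a comparison at 10 CPM or more in either group, and as called higher or lower where its whole interval lies beyond a 1.5-fold difference. CPM values of different genes were not compared with each other.

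The GFPhi library kept 10125 cells with a median of 6899 UMIs, and the GFPlo library kept 11959 cells with a median of 7712. Marker UMIs gated 80.6% of GFPhi cells and 0.594% of GFPlo cells as macrophages (8157 and 71 cells), and 3.45% of GFPhi cells and 61.4% of GFPlo cells as fibroblasts (349 and 7341). Endothelial gates held 246 GFPhi and 828 GFPlo cells, and mesothelial gates held 315 GFPhi and 618 GFPlo cells. No gate used any of the 8 genes. Of genes left out of the gates, Cd68, Fcer1g, Lyz2, Mrc1 and Tyrobp summed to 20710 CPM in GFPhi macrophage-gated and 324 CPM in GFPhi fibroblast-gated cells. Fibroblast genes (Col1a1, Col1a2, Col3a1 and Dcn) summed to 788 CPM in GFPhi and 2349 CPM in GFPlo endothelial gates. Endothelial genes (Cldn5, Esam, Vwf and Ptprb) summed there to 1290 and 1328 CPM. In GFPhi and GFPlo mesothelial gates the fibroblast genes summed to 13093 and 14774 CPM. Mesothelial genes (Wt1, Krt18, Krt8, Muc16 and Bnc1) summed there to 1594 and 1310 CPM. The part of fibroblast RNA in the levels of these gates was not tested. The 6 macrophage gate markers summed to between 151 and 216 CPM in the GFPhi endothelial, fibroblast and mesothelial gates, against 2.18 to 28.2 CPM in the same gates of the GFPlo library, where Csf1r made up 27.6 CPM of the 28.2 in mesothelial cells. The 2 libraries shared 92 cell barcodes.

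In the whole libraries, 3 receptors stood higher in GFPhi and 1 receptor and 2 bridging molecules stood lower. Of the 7 genes measured, 3 were called higher, against 14.6% of all measured genes, and 3 lower, against 27.5%. Cd36, a scavenger receptor for oxidized lipids and dying cells, had 112 CPM in GFPhi and 5.67 CPM in GFPlo cells, a ratio of 19.7 (18.1 to 21.4). Mertk had 74.4 CPM in GFPhi and 7.94 CPM in GFPlo cells, a ratio of 9.37 (8.72 to 10.1). Stab1, a scavenger receptor of macrophages and sinusoidal-type endothelium, had 163 CPM in GFPhi and 18.3 CPM in GFPlo cells, a ratio of 8.89 (8.48 to 9.33). These 3 receptors were rich in the fraction that was mostly macrophages. Timd4, a phosphatidylserine receptor of tissue-resident macrophages, had 832 UMIs in GFPhi and 14 UMIs in GFPlo cells, which is 9.14 and 0.134 CPM and so below the minimum for a call.

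Axl went the other way, with 57.8 CPM in GFPhi and 125 CPM in GFPlo cells (2.17-fold lower, 2.10 to 2.24). Mfge8 had 60.5 CPM in GFPhi and 147 CPM in GFPlo cells (2.43-fold lower, 2.35 to 2.50). Gas6 had 126 CPM in GFPhi and 210 CPM in GFPlo cells (1.67-fold lower, 1.63 to 1.70). Pros1, the anticoagulant protein S, had 26.4 CPM in GFPhi and 36.4 CPM in GFPlo cells and was not called. In sums over a whole library, a different number of cells of a type and a different amount of RNA per cell cannot be told apart.

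With macrophage-gated cells left out of both libraries, Gas6 had 217 CPM in GFPhi and 210 CPM in GFPlo cells, so its lower level in GFPhi was no longer seen. Cd36, Stab1 and Mertk were still called higher in GFPhi, by 4.65-fold (4.15 to 5.22), 2.47-fold (2.30 to 2.66) and 2.07-fold (1.84 to 2.33), against 7.84% of measured genes. Axl (1.80-fold lower) and Mfge8 (1.64-fold lower) were still called lower, against 5.83%. The macrophage gate markers summed to 468 CPM in the remaining GFPhi cells and 11.2 CPM in the remaining GFPlo cells, and their part in the higher receptor levels was not tested.

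**Figure D1:**
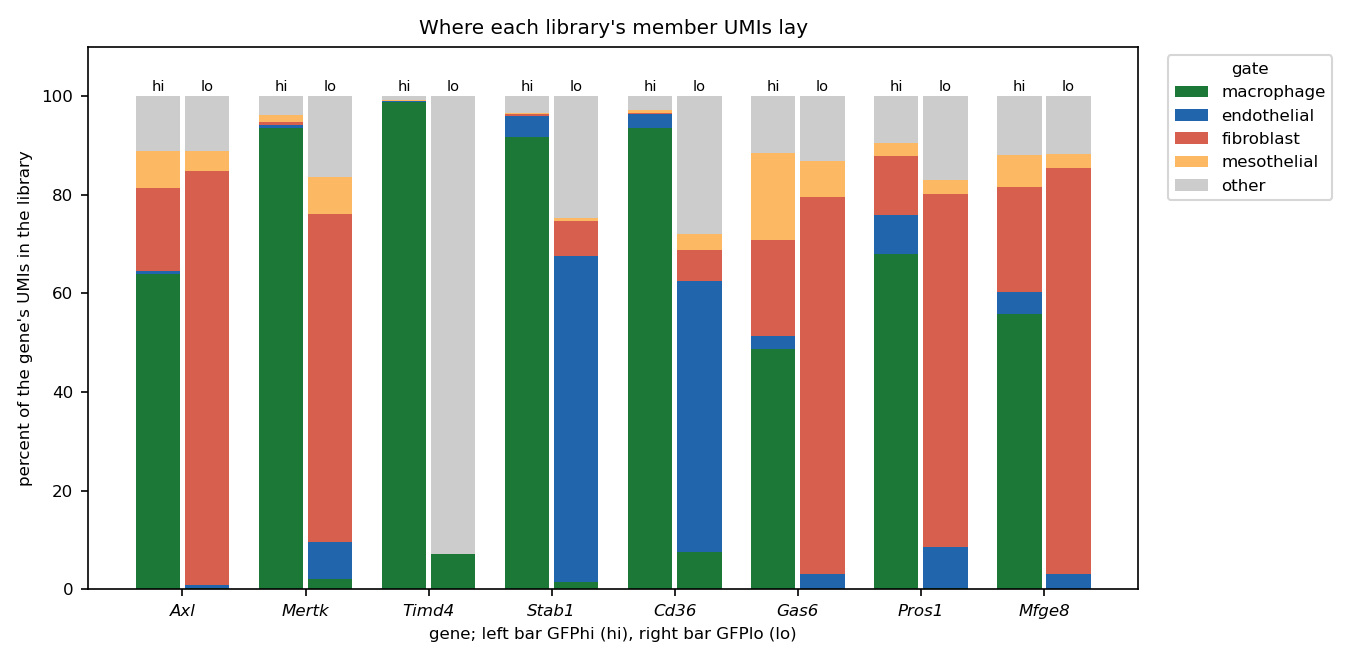
Percent of each library's UMIs of each gene (vertical axis) that lay in macrophage, endothelial, fibroblast and mesothelial gates or in other cells, with GFPhi on the left and GFPlo on the right of each gene. Macrophage-gated cells held 93.5% of GFPhi Mertk UMIs and 48.8% of GFPhi Gas6 UMIs, against 70.2% of all GFPhi UMIs. Fibroblast-gated cells held 66.6% of GFPlo Mertk UMIs and 76.5% of GFPlo Gas6 UMIs. The Mertk share there was close to their share of all GFPlo UMIs (69494252 of 104571137). The GFPlo bar of Timd4 rests on 14 UMIs.

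The receptors were divided among cell types in different ways. Macrophage-gated cells held 98.9% of the Timd4 UMIs of the GFPhi library, 93.5% of the Mertk UMIs, 93.5% of the Cd36 UMIs and 91.8% of the Stab1 UMIs. For Axl their share was 64.0%, with 16.9% in fibroblast-gated cells. The 3 bridging molecules were also spread: macrophage-gated cells held 48.8% of GFPhi Gas6 UMIs, 67.9% of Pros1 UMIs and 55.8% of Mfge8 UMIs, while they held 70.2% of all UMIs of the library. The Pros1 share was thus close to the share of all UMIs, and the Gas6 and Mfge8 shares were below it. In the GFPlo library, fibroblast-gated cells held 84.0% of Axl, 66.6% of Mertk, 76.5% of Gas6, 71.7% of Pros1 and 82.5% of Mfge8 UMIs. They held 69494252 of the 104571137 UMIs of all kept GFPlo cells. The GFPlo Mertk share was thus close to the share of all UMIs, and the Pros1 share was a little above it. Endothelial-gated GFPlo cells held 66.1% of Stab1 and 55.0% of Cd36 UMIs. The plot of UMI shares by gate shows the receptors other than Axl almost wholly in the macrophage bars of GFPhi and in other cell types in GFPlo.

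**Figure D2:**
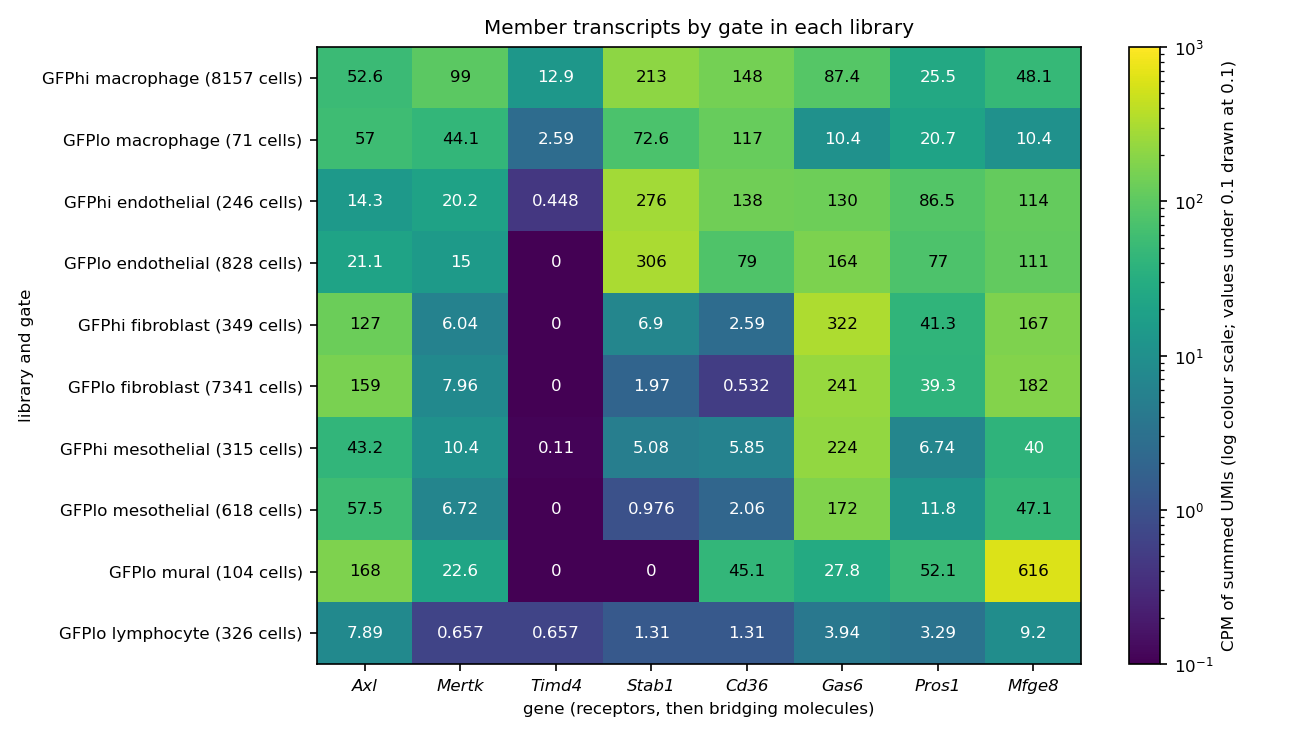
CPM of each gene (columns) in each gate of each library with at least 50 cells (rows), written in the cells and coloured on a log scale. Gas6 was 322 CPM in GFPhi and 241 CPM in GFPlo fibroblast-gated cells, Stab1 was 276 CPM in GFPhi and 306 CPM in GFPlo endothelial-gated cells, and Timd4 was at 0.657 CPM or less outside macrophages.

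Macrophage-gated GFPhi cells had higher Mertk than the endothelial, fibroblast and mesothelial gates of the same library, whereas Stab1 and Cd36 were higher than in fibroblast-gated but not than in endothelial-gated cells. Over fibroblast-gated cells Mertk was 16.4-fold higher (12.1 to 22.8), with 99.0 CPM in macrophage-gated and 6.04 CPM in fibroblast-gated cells, where 18.9% of all measured genes were called higher. Stab1 was 30.8-fold higher (23.2 to 41.8) and Cd36 was 57.3-fold higher (36.3 to 96.8) in the same comparison. Timd4 had 823 UMIs in macrophage-gated and 0 UMIs in fibroblast-gated cells, where a count of 0 (a limit of 3 UMIs) allows up to 0.431 CPM. Gas6 was 3.68-fold lower (3.50 to 3.87), Mfge8 3.48-fold lower (3.25 to 3.73) and Axl 2.42-fold lower (2.25 to 2.61) in macrophage-gated than in fibroblast-gated cells, where 29.5% of measured genes were called lower. Gas6 and its receptor Axl thus stood higher in the fibroblast gate, and its receptor Mertk in the macrophage gate, of the same library. Over endothelial-gated cells, Mertk was 4.91-fold higher (3.66 to 6.74) and Pros1 3.39-fold lower (2.90 to 3.94) in macrophage-gated cells, where 12.5% of measured genes were called higher and 38% lower, while Stab1 (213 CPM in macrophage-gated and 276 CPM in endothelial-gated cells) and Cd36 (148 CPM in macrophage-gated and 138 CPM in endothelial-gated cells) were not called. Over mesothelial-gated cells, Mertk was 9.54-fold higher (7.78 to 11.8) and Gas6 2.56-fold lower (2.44 to 2.70), where 19.1% of measured genes were called higher and 29.7% lower.

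At a depth thinned to 1000 UMIs per cell, 10.2% of GFPhi macrophage-gated cells (9.50 to 10.8) held a Mertk UMI, 19.3% a Stab1 UMI, 8.87% a Cd36 UMI, 5.41% an Axl UMI and 1.06% a Timd4 UMI. Without thinning the shares were 43.1%, 60.5%, 32.9%, 27.0% and 4.47%. In GFPlo lymphocyte-gated cells, 0.307% held a Mertk UMI, 0.613% a Stab1 UMI and 0.613% a Cd36 UMI without thinning. An Axl UMI was in 3.68% and a Timd4 UMI in 0.307% of them. These cells are of the other library and so give no background level for GFPhi cells. Whether some of them carry these receptors themselves was not tested. The median depth was 6840 UMIs in the macrophage-gated and 3508.5 UMIs in the lymphocyte-gated cells. The thinned shares in lymphocyte-gated cells were 0%, 0%, 0%, 1.24% (0.338 to 3.14) and 0.310% (0.00784 to 1.71) for the same 5 genes, and a count of 0 there allows a share of up to 0.929%. After thinning, the macrophage-gated share lay above the lymphocyte-gated one beyond counting error for Mertk, Stab1, Cd36 and Axl, whereas for Timd4 the intervals overlapped (0.847 to 1.31 in macrophage-gated cells).

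The macrophage subsets of the GFPhi library differed in these genes. Cells with Cd163, Folr2, Cbr2 and F13a1, here called resident-type (854 cells), were set against all other macrophage-gated GFPhi cells (7303), and Mertk, Timd4, Stab1, Gas6 and Pros1 were all called higher in them. That is 5 of 8, against 15.4% of all measured genes called higher, and Mfge8 was the 1 gene called lower, against 4.46%. The Mfge8 call was lost after thinning to 1000 UMIs per cell, at a log2 ratio of -1.22 (-2.15 to -0.42). It was also lost with Mmp12/Gpnmb cells, described below, left out of the comparison group, at 11.5 CPM in resident-type cells, against 20.9 CPM, a ratio of 0.552 (0.427 to 0.705). The subsets are cells of 1 library and share its other cells as their comparison group, so these are descriptions of that library. The median log2 ratio was 1.37 over the 8 genes and 0.26 over all measured genes. The 8 genes were chosen with earlier results of these data known, so these shares and medians do not test the list.

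The windows of 250 bases before the RefSeq transcription starts of these 5 genes are printed because the 5 were higher together; they are on GRCm38.p6, the assembly also named mm10, and run 5′ to 3′ on each gene's strand. Capitals mark the GC box letters GGGCGG and the core GAGGAA bound by the myeloid factor PU.1, on either strand, and GC boxes may overlap.
Mertk: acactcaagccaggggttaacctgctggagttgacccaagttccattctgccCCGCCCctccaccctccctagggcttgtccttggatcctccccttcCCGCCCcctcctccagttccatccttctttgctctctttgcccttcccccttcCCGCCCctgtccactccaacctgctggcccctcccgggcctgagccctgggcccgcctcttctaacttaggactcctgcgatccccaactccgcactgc
Timd4: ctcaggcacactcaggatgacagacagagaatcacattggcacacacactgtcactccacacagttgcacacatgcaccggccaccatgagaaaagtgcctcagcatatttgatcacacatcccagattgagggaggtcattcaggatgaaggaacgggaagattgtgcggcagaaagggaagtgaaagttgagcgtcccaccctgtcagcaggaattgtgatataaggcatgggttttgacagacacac
Stab1: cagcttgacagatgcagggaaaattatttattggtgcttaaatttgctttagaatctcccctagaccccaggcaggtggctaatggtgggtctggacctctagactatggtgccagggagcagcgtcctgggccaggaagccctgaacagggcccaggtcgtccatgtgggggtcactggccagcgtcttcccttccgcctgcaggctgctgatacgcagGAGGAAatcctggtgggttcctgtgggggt
Gas6: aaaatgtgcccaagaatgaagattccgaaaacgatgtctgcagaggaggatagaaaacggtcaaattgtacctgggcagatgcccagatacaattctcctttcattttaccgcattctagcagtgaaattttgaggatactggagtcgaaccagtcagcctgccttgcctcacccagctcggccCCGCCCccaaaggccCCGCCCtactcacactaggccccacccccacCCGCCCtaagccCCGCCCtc
Pros1: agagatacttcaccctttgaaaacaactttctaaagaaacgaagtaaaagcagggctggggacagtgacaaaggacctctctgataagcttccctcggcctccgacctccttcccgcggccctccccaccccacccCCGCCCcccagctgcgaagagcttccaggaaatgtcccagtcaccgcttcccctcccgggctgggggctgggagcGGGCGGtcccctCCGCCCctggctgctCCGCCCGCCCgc
Mertk (chr2:128698665-128698914, plus strand) has 3 GC boxes, Gas6 (chr8:13494536-13494785, minus strand) has 4 and Pros1 (chr16:62854057-62854306, plus strand) has 5. Timd4 (chr11:46810549-46810798, plus strand) has neither motif. Stab1 (chr14:31168642-31168891, minus strand) has no GC box and 1 PU.1 core, between 30 and 25 bases before its start. The TATA letters TATAAA are in none of the 8 windows, Axl, Cd36 and Mfge8 included. Of 32851 mouse windows of the same length, 32.7% hold a GC box, 23.3% a PU.1 core and 12.4% the TATA letters. The windows also differ in CpG sites, with 4 in Timd4, 5 in Stab1, 7 in Mertk, 10 in Gas6 and 15 in Pros1, against a median of 6 over all windows. The 5 genes that were higher in resident-type cells therefore share neither of these motifs across all their windows. Letters in a window say nothing of what binds there. The 50 bases after the RefSeq start were looked for at transcript starts of the GENCODE annotation. They were found for Stab1 and Pros1 but not for Mertk, Timd4 and Gas6, so motif positions hold for the RefSeq starts only.

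Timd4 lay mostly in the resident-type subset. It had 99.8 CPM (92.0 to 108) in resident-type cells and 3.75 CPM in the other macrophage-gated cells, a ratio of 26.6 (22.7 to 31.2). Its next highest level was 20.3 CPM (17.0 to 24.0) in cycling cells, those with Mki67, Top2a, Birc5 and Cdk1. In Gdf15/Cxcr4 and Mmp12/Gpnmb cells it was at 0.539 and 0.757 CPM. Resident-type cells held 72.8% of all GFPhi Timd4 UMIs, and 32.2% of them had a Timd4 UMI (8.40% after thinning).

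Stab1 had 647 CPM (627 to 668) in resident-type cells and 167 CPM in other macrophage-gated cells, a ratio of 3.88 (3.74 to 4.02). It was detected in 91.0% of resident-type cells, or 47.0% after thinning. Its lowest level among the subsets was 80.7 CPM (74.6 to 87.1) in MHC class II cells, and the other named subsets lay between 151 and 232 CPM. Resident-type cells thus held the top level of Stab1 in either library, above GFPlo lymphatic endothelial cells at 551 CPM.

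Mertk had 176 CPM (166 to 187) in resident-type cells and 90.9 CPM in other macrophage-gated cells, a ratio of 1.94 (1.81 to 2.07). It varied less between subsets than Stab1 or Timd4 did: 109 CPM (102 to 116) in Gdf15/Cxcr4 cells, 98.5 CPM (76.8 to 124) in monocyte-type cells, 66.7 CPM (62.4 to 71.3) in Mmp12/Gpnmb cells, 63.6 CPM (58.3 to 69.4) in MHC class II cells and 54.5 CPM (49.1 to 60.4) in cycling cells. The intervals of Mmp12/Gpnmb and MHC class II cells overlap, as do those of Gdf15/Cxcr4 and monocyte-type cells. The 3200 macrophage-gated cells that no subset list claimed had 122 CPM.

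Gas6, the ligand of Mertk and Axl, had 378 CPM (363 to 394) in resident-type cells and 56.9 CPM in other macrophage-gated cells, a ratio of 6.65 (6.30 to 7.02). In GFPhi fibroblast-gated cells it had 322 CPM (308 to 335). It was in 77.3% of resident-type cells and 10.3% of MHC class II cells, or 30.7% and 2.52% after thinning. Pros1, the other ligand of Mertk, had 71.6 CPM (65.0 to 78.7) in resident-type cells and 20.7 CPM in other macrophage-gated cells, a ratio of 3.46 (3.10 to 3.87). Both ligands were therefore highest, among macrophage subsets, in the subset where Mertk was highest.

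At full depth, 45.8% of resident-type cells held UMIs of both Mertk and Gas6, against 4.73% of MHC class II cells, and after thinning 4.73% of resident-type and 0.325% of MHC class II cells did. Median depth was 6321 UMIs in resident-type and 6052 UMIs in MHC class II cells. Receptor and ligand RNA were thus found in the same cell most often in the resident-type subset among the 6 named subsets. Mertk and Gas6 were each at their highest level there too, and pairing beyond their separate shares was not tested.

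**Figure D3:**
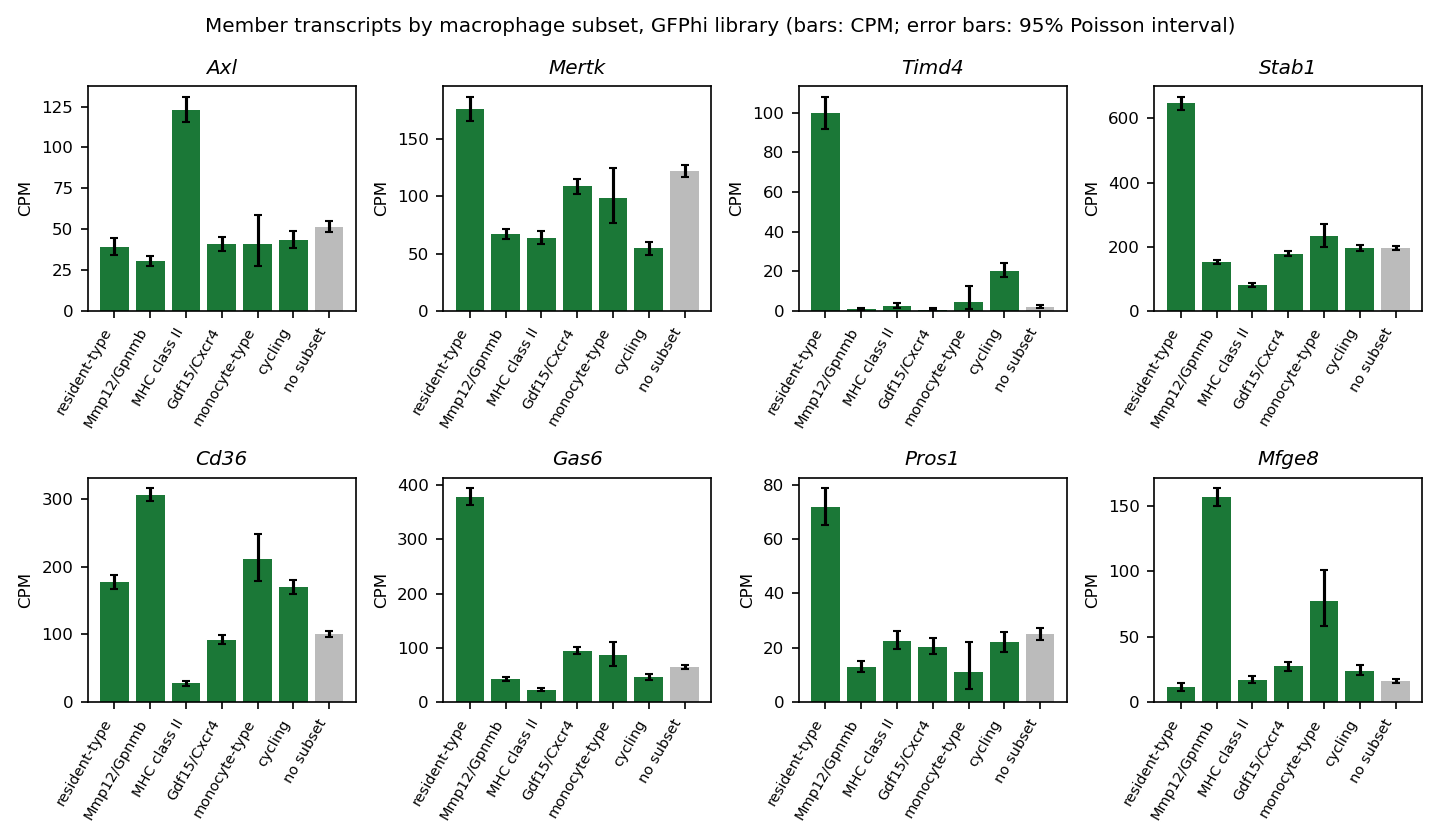
CPM of each gene (vertical axes, linear, from 0) in the 6 macrophage subsets of the GFPhi library and in macrophage-gated cells of no subset (grey), with 95% Poisson intervals. Resident-type cells hold the highest bars of Mertk, Timd4, Stab1, Gas6 and Pros1, MHC class II cells that of Axl at 123 CPM, and Mmp12/Gpnmb cells those of Cd36 at 306 CPM and Mfge8 at 157 CPM.

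Axl was high in another subset than Mertk. MHC class II cells (1248 cells with H2-Aa, H2-Ab1, H2-Eb1 and Cd74, genes of antigen presentation) had 123 CPM of Axl (116 to 131), against 42.3 CPM in other macrophage-gated cells, a ratio of 2.91 (2.70 to 3.14). The other named subsets lay between 30.5 and 43.5 CPM. Axl was the only 1 of the 8 called higher in MHC class II cells, against 2.57% of measured genes, and 5 were called lower, against 4.82%: Timd4 by 5.87-fold, Cd36 by 5.89-fold, Gas6 by 4.16-fold, Mfge8 by 3.06-fold and Stab1 by 2.87-fold. The Mfge8 call did not hold with Mmp12/Gpnmb cells left out, at 17.2 CPM in MHC class II cells, against 20.2 CPM, a ratio of 0.848 (0.704 to 1.01), nor after thinning. Timd4 had 2.45 CPM in MHC class II cells, above its 0.757 CPM in Mmp12/Gpnmb and 0.539 CPM in Gdf15/Cxcr4 cells. Its lower call was thus relative to a group that held the resident-type cells, at 99.8 CPM. At full depth 33.0% of MHC class II cells held Axl without Mertk, 13.4% Mertk without Axl and 15.5% both. In resident-type cells the same shares were 7.49%, 44.3% and 12.2%. After thinning, Axl without Mertk was seen in 10.2% of MHC class II and 3.55% of resident-type cells, and Mertk without Axl in 5.77% of MHC class II and 14.3% of resident-type cells. The order of the pair therefore turned round between these subsets at both depths.

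Cd36 and Mfge8 were highest in Mmp12/Gpnmb cells (1087 cells, with Spp1 as the other marker). Cd36 had 306 CPM (297 to 316) in them and 107 CPM in other macrophage-gated cells, a ratio of 2.85 (2.74 to 2.97). Monocyte-type cells at 211 CPM, resident-type cells at 177 CPM and cycling cells at 170 CPM followed, and MHC class II cells had 28.2 CPM (24.7 to 32.1). These 2 genes were called higher in Mmp12/Gpnmb cells, against 3.42% of measured genes, and 4 were called lower, against 15.7%: Timd4 by 21.2-fold, Gas6 by 2.32-fold, Pros1 by 2.20-fold and Axl by 1.92-fold. After thinning, and likewise with a 2-fold limit, Timd4 and Gas6 were still called and Pros1 and Axl were not.

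Mfge8, the milk fat globule protein that bridges phosphatidylserine to integrins, had 157 CPM (150 to 164) in Mmp12/Gpnmb cells and 19.7 CPM in other macrophage-gated cells, a ratio of 7.93 (7.35 to 8.56). Its UMIs were held by few cells. Of 8157 macrophage-gated GFPhi cells, 58 (0.711%) had 10 or more Mfge8 UMIs, with up to 174 in 1 cell, and these 58 held 56.8% of the macrophage Mfge8 UMIs. Most of them, 48 of 58, were Mmp12/Gpnmb cells.

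These 58 cells had 1757 CPM of Mfge8, against 41.4 CPM in the other Mmp12/Gpnmb cells, a difference set by picking the 58 on their Mfge8 UMIs. Their median depth was 15525.5 UMIs, against 11844. Fibroblast gate markers summed to 10.1 CPM in them and 11.8 CPM in the other Mmp12/Gpnmb cells, endothelial markers to 14.1 CPM in them and 15.5 CPM in the others, and mural markers to 0 CPM in them and 0.806 CPM in the others. All these cells had passed the macrophage gate, which limits such markers. Gpnmb was at 4005 CPM in the 58 cells and 2210 CPM in the other Mmp12/Gpnmb cells. With the 58 left out, Mmp12/Gpnmb cells had 41.4 CPM of Mfge8, against 16.1 CPM in other macrophage-gated cells, a ratio of 2.58 (2.30 to 2.88). The minimum of 10 UMIs was chosen after these values were seen.

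The other genes were less concentrated. The 82 macrophage-gated cells (1%) with most UMIs of a gene held 63.1% of the Mfge8 UMIs and 52.7% of the Timd4 UMIs, but between 9.01% and 17.1% of the UMIs of the other 6 genes. In GFPlo fibroblast-gated cells the top 1% of cells held 5.62% of Mfge8 UMIs, and no cell there had over 17. Mfge8 was thus spread over many fibroblasts and packed into few macrophages.

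Gdf15/Cxcr4 cells (1219) had 3 genes called lower, against 3.83% of measured genes: Timd4, Cd36 (92.4 CPM, against 158 CPM in other macrophage-gated cells) and Mfge8 (27.5 CPM, against 51.5 CPM). After thinning, Timd4 was still called and Cd36 and Mfge8 were not. Cycling cells (490) also had 3 called lower, against 2.85%: Mertk, Gas6 (46.2 CPM, against 92.3 CPM) and Mfge8 (24.1 CPM, against 50.9 CPM). Thinned to 1000 UMIs, the cycling calls were all lost. With Mmp12/Gpnmb cells left out, Mfge8 turned round in both subsets without being called: it had 27.5 CPM in Gdf15/Cxcr4 cells, against 18.0 CPM in the remaining macrophage-gated cells, a ratio of 1.53 (1.32 to 1.76), and 24.1 CPM in cycling cells, against 19.1 CPM, a ratio of 1.26 (1.06 to 1.498). The lower Mfge8 of the other subsets was thus relative to a group that held the Mmp12/Gpnmb cells. Cd36 was then also no longer called in Gdf15/Cxcr4 cells. None of the 8 was called higher in either subset, against 0.615% and 11.4% of measured genes, and none was called in the 59 monocyte-type cells in either direction, against 2.12% higher and 0.892% lower.

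Cells were also divided by Timd4 itself. The 365 macrophage-gated GFPhi cells with a Timd4 UMI, 75.3% of them resident-type, were set beside the 7792 without one, 7.43% of them resident-type. Gas6 had 329 CPM (311 to 349) in the first group and 73.5 CPM (71.3 to 75.7) in the second. Stab1 had 497 CPM with and 196 CPM without a Timd4 UMI, and Pros1 had 72.3 CPM with and 22.8 CPM without. Mertk had 143 CPM with and 96.5 CPM without, Axl had 40.8 CPM with and 53.3 CPM without, and Mfge8 had 17.2 CPM with and 49.8 CPM without. Median depth was 7895 UMIs with and 6783.5 UMIs without, and the split repeats much of the resident-type gate.

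Within the macrophage gate, where 8157 GFPhi cells met 71 GFPlo cells, 3 of the 8 genes were called higher in GFPhi, against 1.09% of measured genes, and none was called lower, against 3.65%. Gas6 had 87.4 CPM in GFPhi and 10.4 CPM (4 UMIs) in GFPlo macrophage-gated cells, a ratio of 8.43 (3.29 to 30.9). Stab1 had 213 CPM in GFPhi and 72.6 CPM (28 UMIs) in GFPlo cells, a ratio of 2.93 (2.03 to 4.41). Mfge8 had 48.1 CPM in GFPhi and 10.4 CPM (4 UMIs) in GFPlo cells, a ratio of 4.63 (1.81 to 17.0). With Mmp12/Gpnmb cells left out of both gates, Mfge8 had 19.7 CPM in GFPhi and 10.6 CPM in GFPlo cells, a ratio of 1.85 (0.722 to 6.82), and was not called.

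The subsets were unequal in the 2 gates: 854 of 8157 GFPhi cells and 1 of 71 GFPlo cells were resident-type, and 1248 of 8157 GFPhi cells and 19 of 71 GFPlo cells were MHC class II cells. Mmp12/Gpnmb cells were 13.3% of the GFPhi and 2.82% of the GFPlo macrophage gate, Gdf15/Cxcr4 cells 14.9% of the GFPhi and 2.82% of the GFPlo gate, monocyte-type cells 0.723% of the GFPhi and 12.7% of the GFPlo gate, and cycling cells 6.01% of the GFPhi and 14.1% of the GFPlo gate. GFPlo shares of 71 cells are of 1 to 19 cells each. With resident-type cells left out of both, Gas6 had 56.9 CPM in GFPhi and 10.5 CPM in GFPlo cells, a ratio of 5.43 (2.12 to 19.9). Stab1 had 167 CPM in GFPhi and 70.7 CPM in GFPlo cells, a ratio of 2.36 (1.62 to 3.58). Both genes stayed past 1.5-fold without that subset, and likewise without Mmp12/Gpnmb cells; both checks were added after the values were seen, and the part of the other subsets was not tested. Mertk was not called at 99.0 CPM in GFPhi and 44.1 CPM in GFPlo macrophage-gated cells, a ratio of 2.25 (1.40 to 3.86), and neither were Axl (52.6 CPM in GFPhi, 57.0 CPM in GFPlo), Cd36 (148 CPM in GFPhi, 117 CPM in GFPlo), Pros1 (25.5 CPM in GFPhi, 20.7 CPM in GFPlo) or Timd4 (12.9 CPM in GFPhi, 2.59 CPM from 1 UMI in GFPlo). Fibroblast collagen and decorin RNA (Col1a1, Col1a2, Col3a1 and Dcn) summed to 118 CPM in the GFPhi and 612 CPM in the GFPlo macrophage gate, and its part in these values was not tested.

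**Figure D4:**
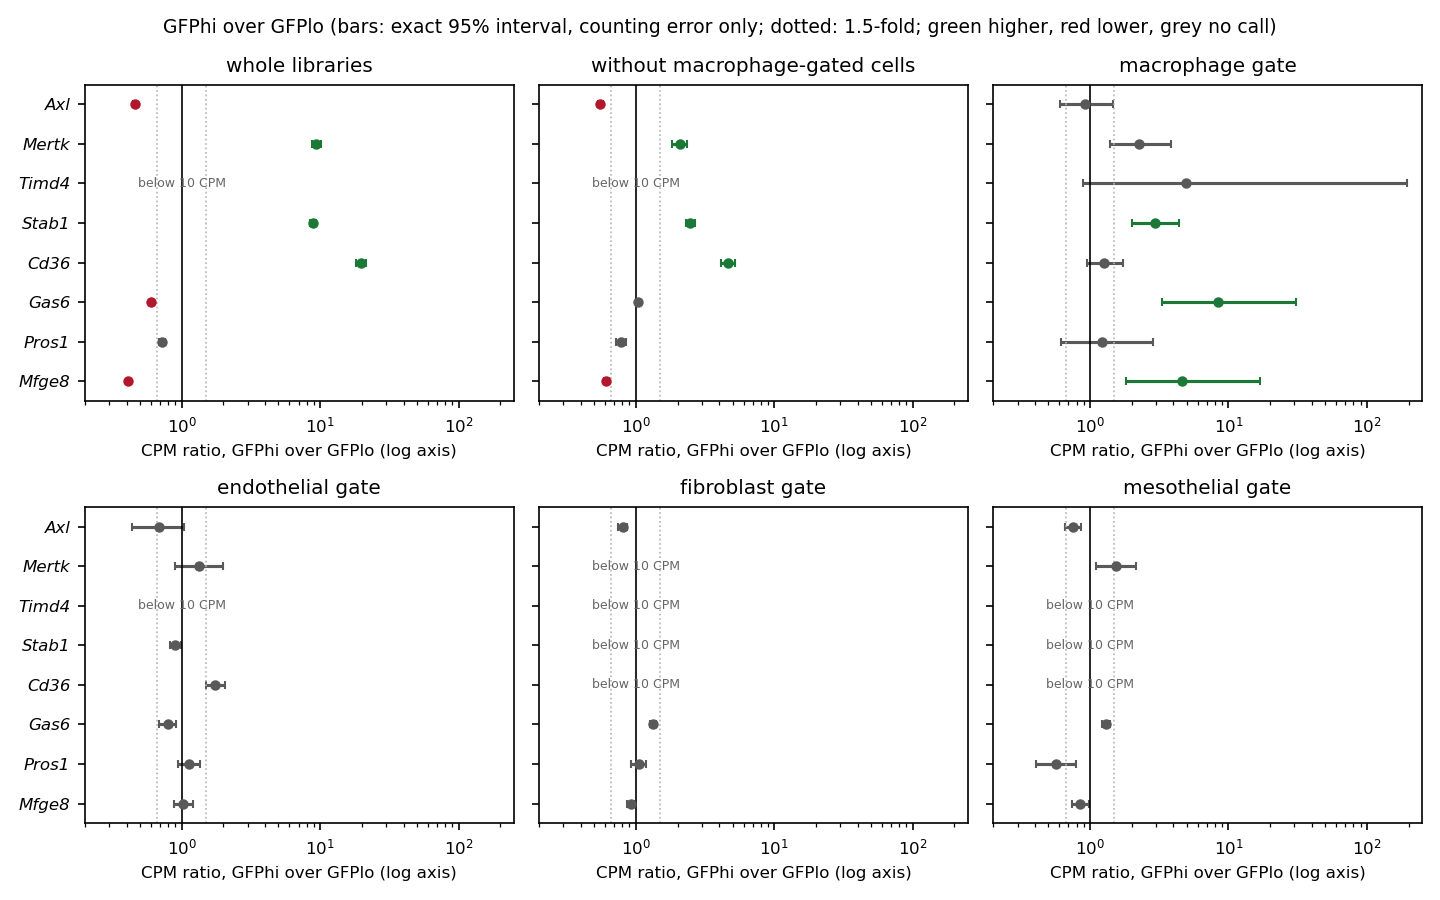
Ratio of CPM, GFPhi over GFPlo (horizontal log axes), for each gene in the whole libraries, without macrophage-gated cells and within 4 gates, with exact 95% intervals and dotted lines at 1.5-fold. The 3 calls within the macrophage gate are Stab1 at 2.93, Gas6 at 8.43 and Mfge8 at 4.63, and no gene is called within the endothelial, fibroblast or mesothelial gates.

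Outside the macrophage gate no lineage gate had a called gene at these settings, although Cd36 in endothelial-gated cells lay just below the limit. No gene of the 8 was called in endothelial-gated cells (7 measured, 1.29% of all measured genes called higher and 2.21% lower), in fibroblast-gated cells (4 measured, 0.956% higher and 0.896% lower) or in mesothelial-gated cells (5 measured, 1.01% higher and 1.66% lower). Gas6 had 322 CPM in GFPhi and 241 CPM in GFPlo fibroblast-gated cells, a ratio of 1.33 (1.27 to 1.39). It had 224 CPM in GFPhi and 172 CPM in GFPlo mesothelial-gated cells, a ratio of 1.30 (1.22 to 1.39). Axl had 127 CPM in GFPhi and 159 CPM in GFPlo fibroblast-gated cells, a ratio of 0.803 (0.749 to 0.860), and Mfge8 had 167 CPM in GFPhi and 182 CPM in GFPlo cells, a ratio of 0.918 (0.864 to 0.975). All 3 intervals exclude a 1.5-fold difference either way in fibroblasts. Pros1 had 6.74 CPM in GFPhi and 11.8 CPM in GFPlo mesothelial-gated cells, a ratio of 0.570 (0.410 to 0.787).

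Stab1 and Cd36, receptors that fibroblasts hardly carried, were at 6.90 and 2.59 CPM in GFPhi and at 1.97 and 0.532 CPM in GFPlo fibroblast-gated cells, all below the minimum for a call. C1qa, a complement gene of macrophages, stood at 47.0 CPM in the same GFPhi and 0.432 CPM in the same GFPlo cells. Only 8.31% of GFPhi fibroblast-gated cells, against 96.8% of GFPlo ones, had no macrophage marker UMI, and the part of macrophage RNA in these low receptor levels was not tested.

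Endothelial cells carried their own set of these genes. Stab1 had 276 CPM in GFPhi and 306 CPM in GFPlo endothelial-gated cells, a ratio of 0.902 (0.818 to 0.994), and 23.8% of GFPhi and 23.7% of GFPlo cells held a UMI after thinning (67.9% and 58.8% without). Cd36 had 138 CPM in GFPhi and 79.0 CPM in GFPlo cells, a ratio of 1.75 (1.49 to 2.05). This value, a log2 ratio of 0.81, was called higher in 3 alternatives: 0.82 with at least 6 marker UMIs, 0.82 with a stricter cell filter and 1.28 after thinning. With 95% of marker UMIs from the own lineage it was 0.22 (-0.12 to 0.56). Capillary cells, those with Gpihbp1, Rgcc and Car4, were 38 of the 246 endothelial-gated GFPhi cells and 63 of the 828 endothelial-gated GFPlo cells. Within them Cd36 had 474 CPM in GFPhi and 450 CPM in GFPlo cells, a ratio of 1.05 (0.856 to 1.30), and in the other endothelial-gated cells it had 54.3 CPM in GFPhi and 42.3 CPM in GFPlo cells, a ratio of 1.28 (0.987 to 1.66). The Cd36 ratio was thus nearer to 1 on either side of the capillary gate than over the whole endothelial gate.

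By endothelial subset in the GFPlo library, Cd36 was 10.6-fold higher (8.50 to 13.3) in capillary cells than in the other endothelial-gated cells, against 4.37% of measured genes called higher, and Stab1 was 3.28-fold lower (99.7 against 327 CPM), against 5.15% called lower. Lymphatic cells, with Prox1, Mmrn1, Ccl21a and Pdpn, had 551 CPM of Stab1, against 240 CPM in other endothelial-gated cells, and 152 CPM of Pros1, against 56.7 CPM, where 5.73% of measured genes were called higher and 7.22% lower. Endocardial cells, with Npr3, Smoc1 and Hmcn1, had 51.2 CPM of Axl, against 10.5 CPM, and 263 CPM of Gas6, against 129 CPM, where 7.18% of measured genes were called higher. Each of these subsets thus led in a different receptor: capillary cells in Cd36, lymphatic cells in Stab1 and endocardial cells in Axl. In the GFPhi library the order of Stab1 was the other way, with 494 CPM in endocardial and 473 CPM in lymphatic cells. The lymphatic order of Pros1 was the same in both libraries, at 140 CPM in GFPhi and 152 CPM in GFPlo lymphatic cells, its 2 highest levels over all gates.

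Between the fractions, the only call within an endothelial, fibroblast or mesothelial subset described here, each of at least 50 cells, was Mertk in lymphatic cells, at 31.2 CPM (20 UMIs) in 68 GFPhi and 7.93 CPM (7 UMIs) in 178 GFPlo cells, a ratio of 3.93 (1.60 to 10.99), where 1.11% of measured genes were called higher and 0.692% lower. Macrophage gate markers summed to 322 CPM in those GFPhi and 1.13 CPM in those GFPlo cells, and their part in the Mertk level was not tested. Cells with no macrophage marker UMI were compared over the whole endothelial gate and not for lymphatic cells alone. In these 64 GFPhi and 821 GFPlo cells the log2 ratio of Mertk was 1.46 (0.50 to 2.31) and that of Cd36 0.62 (0.11 to 1.09). Neither was past the 1.5-fold limit with its whole interval, and neither was called over all endothelial-gated cells.

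In the other subsets described here none of the 8 genes was called. Stab1 had 494 CPM in GFPhi and 319 CPM in GFPlo endocardial cells, a ratio of 1.55 (1.27 to 1.88), where 0.525% of measured genes were called higher and 0.28% lower. In endothelial-gated cells of no subset (1.49% higher, 1.09% lower) Pros1 had 125 CPM in GFPhi and 74.7 CPM in GFPlo cells, a ratio of 1.67 (1.13 to 2.46). In fibroblast-gated cells of no subset (1.16% higher, 0.833% lower) Gas6 had 392 CPM in GFPhi and 264 CPM in GFPlo cells, a ratio of 1.49 (1.40 to 1.57). Gas6 was nearer to even in Comp/Thbs4 fibroblasts (307 CPM in GFPhi and 261 CPM in GFPlo, with 0.789% of measured genes higher and 0.643% lower). Among mesothelial cells it had 184 CPM in GFPhi and 108 CPM in GFPlo Krt14/Slurp1 cells, a ratio of 1.71 (1.41 to 2.09), where 0.843% of measured genes were called higher and 0.967% lower, and 273 CPM in GFPhi and 225 CPM in GFPlo cells of no subset, where 0.803% were higher and 1.14% lower. The Gas6 ratio was above 1 in each of these 4 fibroblast and mesothelial subsets, without passing the limit in any. Median depth was 17091 UMIs in GFPhi and 8409 UMIs in GFPlo fibroblast-gated cells. In mesothelial-gated cells it was 28329 UMIs in GFPhi and 14255 UMIs in GFPlo. The part of depth in these subset ratios was not tested.

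Fibroblasts held most of the Axl and Gas6 of the GFPlo library. Pi16/Scara5 cells, which carry the markers of adventitial-type fibroblasts, had 369 CPM of Axl, against 132 CPM in other fibroblast-gated GFPlo cells, a ratio of 2.80 (2.68 to 2.92), where 5.27% of measured genes were called higher. This was the highest Axl level of any gate in either library, with mural cells next at 168 CPM (137 to 205). Axl thus differed by subset within fibroblasts as it did within macrophages.

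Mertk was low in fibroblast-gated GFPlo cells at 7.96 CPM, but it had 16.8 CPM in Comp/Thbs4 cells, against 6.48 CPM in the others, a ratio of 2.59 (2.15 to 3.11), where 2.16% of measured genes were called higher. Gas6 was 3.04-fold lower (2.78 to 3.32) in cycling fibroblast-gated cells, at 84.4 CPM against 257 CPM in the others, where 4.92% of measured genes were called lower. Cycling endothelial-gated cells had 72.6 CPM of Gas6, against 182 CPM in the others, and cycling mesothelial-gated cells had 55.8 CPM, against 187 CPM, where 6.27% and 2.46% of measured genes were called lower. At full depth, Gas6 was therefore lower in the cycling cells of these 4 lineages, macrophages of GFPhi included, than in their summed other cells. For macrophages the call was lost after thinning, and the other cells included resident-type cells, at 378 CPM. Cycling macrophage-gated cells, at 46.2 CPM, stood above Mmp12/Gpnmb cells (42.7 CPM) and MHC class II cells (23.3 CPM). Cycling endothelial-gated GFPlo cells likewise stood above capillary cells, at 51.2 CPM. In fibroblast-gated and mesothelial-gated GFPlo cells the cycling subset had the lowest Gas6 level. Each such comparison is within 1 library.

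Mural cells of the GFPlo library (104 cells with markers of pericytes and smooth muscle) had the highest Mfge8 level of any gate, 616 CPM (554 to 684), against 182 CPM in fibroblast-gated cells, a ratio of 3.38 (3.03 to 3.76). Of them 76.9% held an Mfge8 UMI (37.0% after thinning). Cd36 at 45.1 CPM and Mertk at 22.6 CPM were also called higher in mural than in fibroblast-gated cells (0.532 and 7.96 CPM), where 11% of measured genes were, and Gas6 was called lower at 27.8 CPM, against 241 CPM, where 6.5% of measured genes were. The GFPhi library had 14 mural-gated cells, too few for a level.

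The genes with the most similar levels were sought over 32 profiles, each a lineage or subset gate of 1 library with at least 50 cells, by Pearson's r of log2(CPM + 1) over 11787 genes outside the gate markers. The profiles share 2 libraries and differ in depth, so these values describe the pattern and carry no test. Timd4 was closest to Alox5 (r = 0.94), Rbpj (0.91) and Fcna (0.91), Stab1 to Lyl1 (0.97), Ctla2b (0.93) and Kctd12 (0.92), and Mertk to Atp6v0a1 (0.91), Atp6v0b (0.91) and Clec4d (0.88). Cd36 was closest to Myo1e (0.89), Pdgfb (0.87) and Arpc3 (0.86), and Axl to Rnd3 (0.85), Pik3r2 (0.84) and Slc8a1 (0.84). Of the bridging molecules, Pros1 was closest to Sbf2 (0.92), Reep3 (0.91) and Tcf4 (0.89), Mfge8 to Abca5, Sgcb and P3h3, and Gas6 to Arsa, Mir99ahg and Nr1d1. Among the 8 genes the highest r were 0.73 for Stab1 with Cd36 and 0.72 for Mertk with Cd36, whereas Mertk and Axl had r = -0.02 and Timd4 and Mfge8 had r = -0.57.

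Of 43 other efferocytosis genes, 33 were measured in the whole libraries, with 18 called higher and 4 lower in GFPhi, against 14.6% higher and 27.5% lower of all measured genes. Among the higher receptors were Msr1, a class A scavenger receptor (97.7 CPM in GFPhi and 0.583 CPM in GFPlo), and Trem2, a lipid-sensing receptor of macrophages (916 CPM in GFPhi and 29.6 CPM in GFPlo). All 4 genes of corpse digestion were higher, among them the lysosomal lipase Lipa (229 CPM in GFPhi and 65.8 CPM in GFPlo) and the lysosomal nuclease Dnase2a (54.3 CPM in GFPhi and 10.8 CPM in GFPlo). The 4 lower genes were Itgb3, Megf10, the adaptor Gulp1 and the bridging molecule Thbs1 (66.5 CPM in GFPhi and 218 CPM in GFPlo). The median log2 ratio was 0.88 over the list and -0.27 over all measured genes.

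Within the macrophage gate the same list had 2 genes called higher in GFPhi and 1 lower of 32 measured, against 1.09% higher and 3.65% lower of all measured genes. Abca1, a cholesterol exporter, had 197 CPM in GFPhi and 77.8 CPM in GFPlo macrophage-gated cells, a ratio of 2.53 (1.77 to 3.76). Trem2 was 2.06-fold higher (1.81 to 2.35), and Thbs1 was 2.80-fold lower at 40.8 CPM in GFPhi and 114 CPM in GFPlo cells. Most of the list's differences between whole libraries were thus not called within this gate. Thbs1 was also called lower in GFPhi in endothelial-gated cells (104 CPM in GFPhi and 187 CPM in GFPlo) and in mesothelial-gated cells (31.0 CPM in GFPhi and 70.4 CPM in GFPlo).

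In resident-type cells 6 genes of the list were called higher and 7 lower of 32 measured, against 15.4% higher and 4.46% lower of all measured genes, so the count of higher genes was near the background. Edil3, a bridging protein for integrins, had 15.3 CPM, against 1.28 CPM in other macrophage-gated cells, and Dock1, part of the engulfment machinery, had 70.9 CPM, against 27.5 CPM. The lower genes included Trem2 (639 CPM, against 1311 CPM), Cd300lf (10.5 CPM, against 49.9 CPM) and the lipid-responsive nuclear receptor Pparg (15.8 CPM, against 34.4 CPM). Mmp12/Gpnmb cells had 5 higher and 4 lower of 30 measured, against 3.42% higher and 15.7% lower of all measured genes, with Cd300lf at 76.8 CPM, against 38.1 CPM, and Dock1 at 16.9 CPM, against 35.5 CPM. These 2 genes, like Gas6, Pros1 and Timd4, were called in opposite directions in these subsets at full depth, each set against a group that contains the other. MHC class II cells had none higher and 7 lower of 30 measured, against 2.57% higher and 4.82% lower of all measured genes, among them Lrp1 (203 CPM, against 355 CPM) and Msr1 (60.1 CPM, against 148 CPM).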

How the data were processed

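The authors deposited 1 UMI count table per library; the counts were whole numbers and were used unchanged, with rows of the same symbol (Ccl21a) summed. The mm10 build is named in the submitters' processing notes, and per the labels the libraries came from a SeekOne 3′ kit, although another field names 10x Genomics. The aligner and counting program are not stated in the labels or the file headers. The 2 libraries held 91343549 UMIs in 10430 barcodes (GFPhi) and 104855204 UMIs in 12344 barcodes (GFPlo).

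Cells were kept from 300 genes and 500 UMIs upwards, with mitochondrial UMIs no higher than 20% of the total, which left out 305 GFPhi (2.92%) and 385 GFPlo barcodes (3.12%). No doublet caller was run; leaving out the cells above the 95th percentile of UMIs was an alternative. A lineage gate needed 3 UMIs from at least 2 markers of that lineage and 80% of all marker UMIs of 8 lineages. A subset was the highest of the mean marker levels relative to the lineage's mean, at 1.5 or above and with at least 3 UMIs. Levels are given for gates of at least 50 cells, except Cd36 in the 38 GFPhi capillary cells. The levels of 1 fibroblast subset are not reported here. UMIs were summed per gate, ratios were given exact conditional binomial intervals, and levels and shares exact Poisson and Clopper-Pearson intervals, all at 95%. With 1 library per group no test between groups was made.

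All 8 members are named, with pathway genes past the 1.5-fold limit and the 3 genes most alike in pattern. The members and lists were chosen with earlier results of these data known. The split by Mfge8 UMIs, the capillary split, the comparisons without resident-type and without Mmp12/Gpnmb cells, and 2 gate alternatives were added after the values were seen. Promoter windows came from the RefSeq table for GRCm38.p6. The calculations used Python 3.11.15, NumPy 2.4.6, SciPy 1.17.1, pandas 2.3.3 and matplotlib 3.10.9, and were tested on simulated data.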

Additional observations from a re-analysis of the deposited data

How the results depend on the processing

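No paired analysis was possible because each group was 1 library, and for the same reason no library could be left out. Of 33 called values, 30 kept their direction under every alternative run. The 2-fold limit and the changed minimum levels alter calls and not ratios, so they could not reverse a direction. The exceptions were values of Gas6 and Mfge8. Gas6 in the whole libraries, at a log2 ratio of -0.74, was at 0.041 without macrophage-gated cells. Without Mmp12/Gpnmb cells Mfge8 was at 0.61 in Gdf15/Cxcr4 cells (-0.91 with them) and at 0.34 in cycling cells (-1.08 with them). That last alternative, chosen after seeing the data, left 0 of 1 lower call in resident-type cells and 1 of 3 in Gdf15/Cxcr4 cells, and gave 2 higher calls instead of 0 in monocyte-type cells (Cd36 and Mfge8) and 1 instead of 0 in cycling cells (Cd36). In the endothelial gate 1 gene (Cd36) instead of 0 was called higher with 6 marker UMIs, with the stricter cell filter and with cells thinned to 1000 UMIs. With no minimum level, 2 genes instead of 0 were called higher in the fibroblast gate and 2 in the mesothelial gate, and 1 instead of 0 was called lower in the mesothelial gate with Lum, Dpt and Mfap5 left out of the markers. Thinning left 0 of 1 lower call in resident-type cells, 2 of 4 in Mmp12/Gpnmb cells, 1 of 3 in Gdf15/Cxcr4 cells and 0 of 3 in cycling cells. A 2-fold limit left 2, 1 and 0 lower calls in Mmp12/Gpnmb, Gdf15/Cxcr4 and cycling cells, and a minimum of 50 CPM left 2 in Mmp12/Gpnmb cells. Apart from the 50 CPM minimum, under which fewer genes were measured, and the 2-fold limit, the cause was not tested. Within the macrophage gate the log2 ratio of Mfge8 (2.21) ranged from 0.89 to 2.43, that of Stab1 (1.55) from 1.47 to 3.02 and that of Gas6 (3.08) from 3.01 to 3.29, the last with no value after thinning. Only 71 GFPlo cells limit that gate, where a count of 0 allows 7.78 CPM.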
